A study of Mus musculus with 3 samples.

Results

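Krüppel-like factors are zinc finger transcription factors, and 10 genes of the family other than the erythroid founder Klf1 were examined in the erythroblasts of mouse embryos: Klf2, Klf3, Klf4, Klf6, Klf7, Klf9, Klf10, Klf11, Klf13 and Klf16. They were taken by gene symbol, and they are 10 of the 15058 genes listed in either of the 2 deposited tables. Of the 10, 9 are listed in both tables, and Klf2 is listed only in the table of the Drosha-null library. Erythroblasts, the nucleated precursors of red cells, were sorted from the peripheral blood of embryos at E10.5 by 2 surface proteins, CD71 (which takes up transferrin) and Ter119 (a marker of the red-cell lineage). The Drosha-null library came from CD71-positive Ter119-high cells of Drosha fl/fl embryos carrying cdh5-cre, and its label gives Drosha as null. The Ter119-low library came from CD71-positive Ter119-low cells of embryos of the same conditional knockout (cKO) genotype, and its label gives Drosha at wild-type abundance. The control library came from CD71-positive Ter119-high cells of embryos that were Drosha fl/fl or Drosha fl/+. The Cre gene is driven by the endothelial gene Cdh5, so deletion in erythroblasts depends on their descent from cells that expressed it. Each group has 1 library, and the design text gives pools of 5 embryos, so how much embryos or pools vary within a group is not known, and no test between groups was made. No Ter119-low control library was analysed here, so in the comparison of Ter119-low cKO cells with the control the genotype and the gate cannot be told apart. Drosha-null and Ter119-low cKO cells share the genotype but differ in both gate and labelled Drosha state, which cannot be told apart there.

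All Krüppel-like factors bind GC-rich or CACCC sequences through a set of zinc fingers at the end of the protein, and they differ in the partners that the rest of the protein recruits. Klf2, Klf4, Klf6 and Klf7 belong to the branch that mostly activates genes, Klf3 recruits the co-repressor CtBP, and Klf9, Klf10, Klf11, Klf13 and Klf16 recruit the co-repressor Sin3. In primitive red cells Klf2 is known to act with Klf1 on the embryonic globin genes, and Klf3 is a known target of Klf1. Drosha starts microRNA production in the nucleus by cutting the hairpin out of the primary transcript. The microRNA miR-92a is known to repress Klf2 and Klf4 in endothelial cells.

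Total counts were between 9325814 and 9497425 per library, with 13277 to 13894 genes detected. Drosha itself had 122 counts in the Drosha-null, 244 in the Ter119-low and 324 in the control library, although such counts can include reads from exons that the deletion leaves in place. All 12 erythroid markers were detected in each library, with summed levels of 141538 CPM (scaled counts relative to library size) in the Drosha-null, 242343 in the Ter119-low and 279204 in the control library. The 10 most abundant genes took 45.9%, 52.6% and 54.7% of the counts in these libraries. Counts were scaled between libraries by TMM, a trimmed mean of gene-wise ratios. Ratios are log2 ratios of scaled counts with 0.5 counts added, with exact 95% counting intervals in parentheses. These intervals cover counting error only, since each group has 1 library. They also take each read as a separate molecule, because PCR copies could not be told apart here. A gene was tested where it had at least 1 CPM in either library, and was called higher or lower where the ratio was at least 2 either way and the interval excluded 1. By this rule Drosha was called lower in Drosha-null against control, at −1.81 (−2.13 to −1.51). In Ter119-low against control Drosha stood at −0.49 (−0.74 to −0.25), below the control though not called, where the label gives wild-type abundance. Scaling by total counts in place of TMM raised the median of all genes by 0.43 in Drosha-null over control, so log2 ratios less than 0.43 below 0 change sign with that scaling. In bulk RNA, fewer cells of a type and less RNA per cell cannot be told apart.

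Klf3 was by far the most abundant of the 10 genes in each library. Per gene length its level was 55.6 FPKM (a count divided by gene length and library size, as deposited) in the Drosha-null, 47.4 in the Ter119-low and 40.3 in the control library. It made up 59.3%, 68.6% and 65.1% of the summed FPKM of the 10 genes in those 3 libraries. Klf13 was next, at 9.81, 6.65 and 7.83 FPKM in the Drosha-null, Ter119-low and control libraries. Klf1, the erythroid founder, lay above both, at 82.3 FPKM in the Drosha-null, 92.6 in the Ter119-low and 90.3 in the control library.

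The order of the remaining genes differed between the libraries. In the control, Klf10 (4.48 FPKM) and Klf11 (3.89) followed Klf13 and had overlapping counting intervals, and Klf6 (1.95), Klf16 (1.91) and Klf7 (1.48) formed a lower group whose neighbours also overlapped. In the Drosha-null library Klf7 (8.66 FPKM) and Klf6 (7.02) stood directly after Klf13, and the intervals of Klf13 and Klf7 overlapped, as did those of Klf7 and Klf6. Klf6 lay above Klf10 (4.46) there without overlap. By counts Klf7 (103) lay below Klf6 (272) and Klf13 (580) in that library. FPKM ranks between genes rest on the listed gene length. For Klf7 (1344 bases) and Klf3 (2314 bases) this length is shorter than the longest annotated 3′ UTR alone (6266 and 3743 bases). In the Ter119-low library the order was Klf3, Klf13, Klf11 (4.95), Klf10 (3.81), Klf6 (2.86), Klf16 (1.68) and Klf7 (1.5), with overlap between Klf11 and Klf10, between Klf10 and Klf6, and between Klf16 and Klf7. Klf2, Klf4 and Klf9 were last wherever they were detected, at or below 0.8 FPKM.

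**Figure D1:**
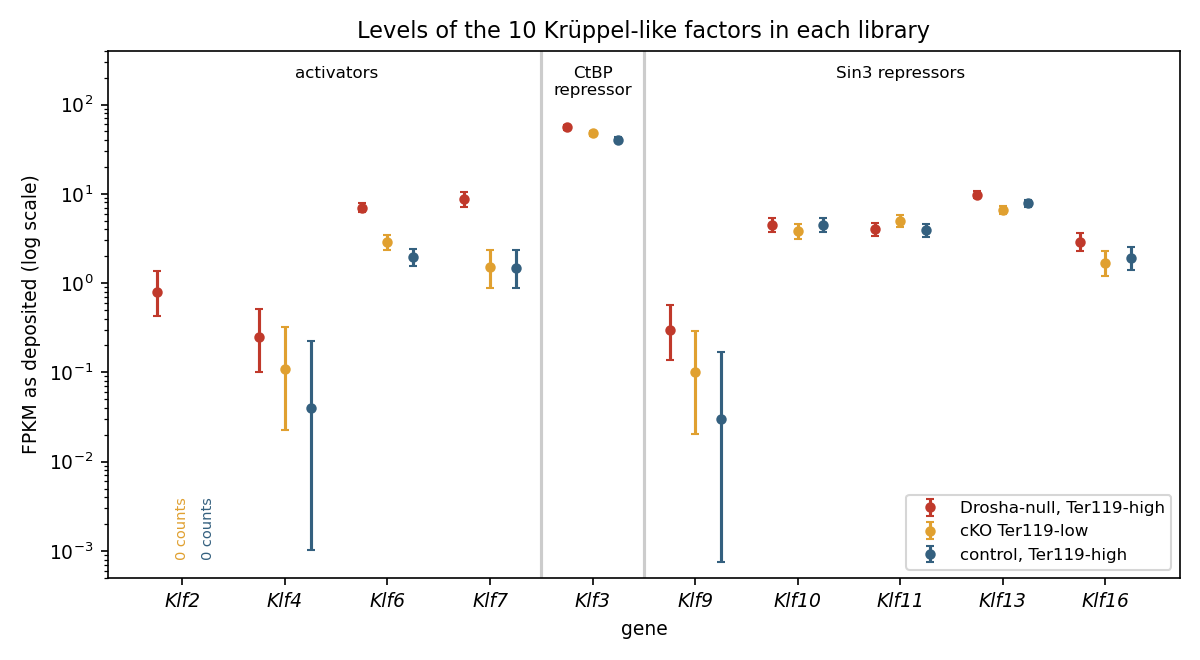
Deposited FPKM (vertical axis, log scale) of the 10 genes in the Drosha-null, Ter119-low cKO and control libraries, 1 library each; bars are 95% Poisson counting intervals, and libraries at 0 counts are marked in words. Klf3 lies highest in all 3 libraries (55.6, 47.4 and 40.3 FPKM), and the intervals of Klf3, Klf6, Klf7 and Klf13 in the Drosha-null library lie above those of both other libraries on this scale.

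In Drosha-null against control, the genes called were Klf6, Klf7 and Klf2 of the activating branch (3 of 8 members tested, where 20.2% of all genes tested were called). Klf2 entered the test only through the library in which it was high, and of the 7 members at 1 CPM or more in both libraries, 2 were called. On GRCm38 (GENCODE M21), Klf6 lies at chr13:5861482-5870394 on the plus strand, Klf7 at chr1:64029447-64122282 on the minus strand and Klf2 at chr8:72319033-72321656 on the plus strand. Exons of Klf7 overlap 2 genes on the opposite strand, Gm26649 and Gm13748, whose reads cannot be told apart if counting ignored the strand. Klf6, which is needed for yolk sac blood and vessel formation in mice, had 272 counts in the Drosha-null, 112 in the Ter119-low and 77 in the control library. The Drosha-null library was the highest of the 3 and the Ter119-low library lay between. Against the control Klf6 was called higher in Drosha-null cells, with a log2 ratio of 1.41 (1.04 to 1.80), a ratio of 2.65. Against the Ter119-low library the log2 ratio was 0.95 (0.63 to 1.29), a ratio of 1.94 that stayed under the size rule by TMM and passed it when scaled by total counts (1.29). Ter119-low over control was 0.45 (0.02 to 0.89) for Klf6, not called.

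Klf7, best known for its role in neurons, had 103 counts in the Drosha-null, 18 in the Ter119-low and 18 in the control library. The Drosha-null library stood alone above the other 2, which had the same count. The log2 ratio was 2.08 (1.38 to 2.92) against the control and 2.17 (1.46 to 3.0) against the Ter119-low library, and Klf7 was called higher in both. These are ratios of 4.24 and 4.49. Ter119-low over control was −0.08 (−1.11 to 0.94) by TMM and just above 0 by total counts (0.01).

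Klf2 had 13 counts in the Drosha-null library and was given 0 in the Ter119-low library, whose table does not list it, and it had 0 in the control. Its level in the Drosha-null library was 1.17 CPM. Against a floor of 3 counts in the other library, and taking the 13 counts as exact, it was at least 3.27-fold higher than in the control and at least 3.46-fold higher than in the Ter119-low library. With the error of the 13 counts included, the counting intervals of these ratios began at 2.30 and 2.44 and had no upper end. Klf4, a reprogramming factor known from epithelia and vessels, had 7 counts in the Drosha-null, 3 in the Ter119-low and 1 in the control library and did not reach the filter in any comparison. Its ratio of Drosha-null to control was 3.99 with an interval of 0.678 to 238, so a difference was not detectable at this depth.

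Klf2, Klf4 and Klf6 are also expressed by endothelial cells, some of whose markers were higher in the Drosha-null library. Of the 14 endothelial markers, 8 were tested in Drosha-null against control. By TMM 3 were called higher and 0 lower, where 12.4% of all genes tested were called higher and 7.73% lower. By total counts 7 were called higher, where 2501 of 10885 genes were. The median log2 ratio of the 8 was 0.98, against −0.02 over all genes tested. The 3 called by TMM were Pecam1, Tek and Cd34, each under 1 CPM in the control and so tested only through the Drosha-null library. Kdr, with 26, 9 and 22 counts in the Drosha-null, Ter119-low and control libraries (−0.16), and Flt1, with 7, 6 and 7 (−0.38, under the filter), were not called. All 14 endothelial markers are listed, 13 of them detected in the Drosha-null, 11 in the Ter119-low and 14 in the control library, and their summed level was 26.7 CPM in the Drosha-null, 12.8 in the Ter119-low and 13.1 in the control library. Pecam1 had 55, 4 and 3 counts in these libraries, Cdh5 had 32, 16 and 12, and Nos3, a known Klf2 target, had 0, 0 and 1. The markers named here were chosen after their values were seen. Cardiac markers summed to 30.3, 6.17 and 8.81 CPM, with 6 of 7 listed markers detected in the Drosha-null and 4 in each other library, and Myh6 at 0 in both cKO libraries. Mesenchymal markers summed to 14.2, 9.09 and 10.4 CPM and macrophage markers to 6.10, 2.69 and 6.31 CPM, in the order Drosha-null, Ter119-low and control. Neural markers, beside which Klf7 can be read, summed to 26.7, 20.8 and 21.4 CPM, megakaryocyte markers to 12.5, 13.4 and 11.7 CPM and epithelial markers to 4.49, 2.36 and 2.02 CPM in the same order. Their part in the Klf results was not tested.

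**Figure D2:**
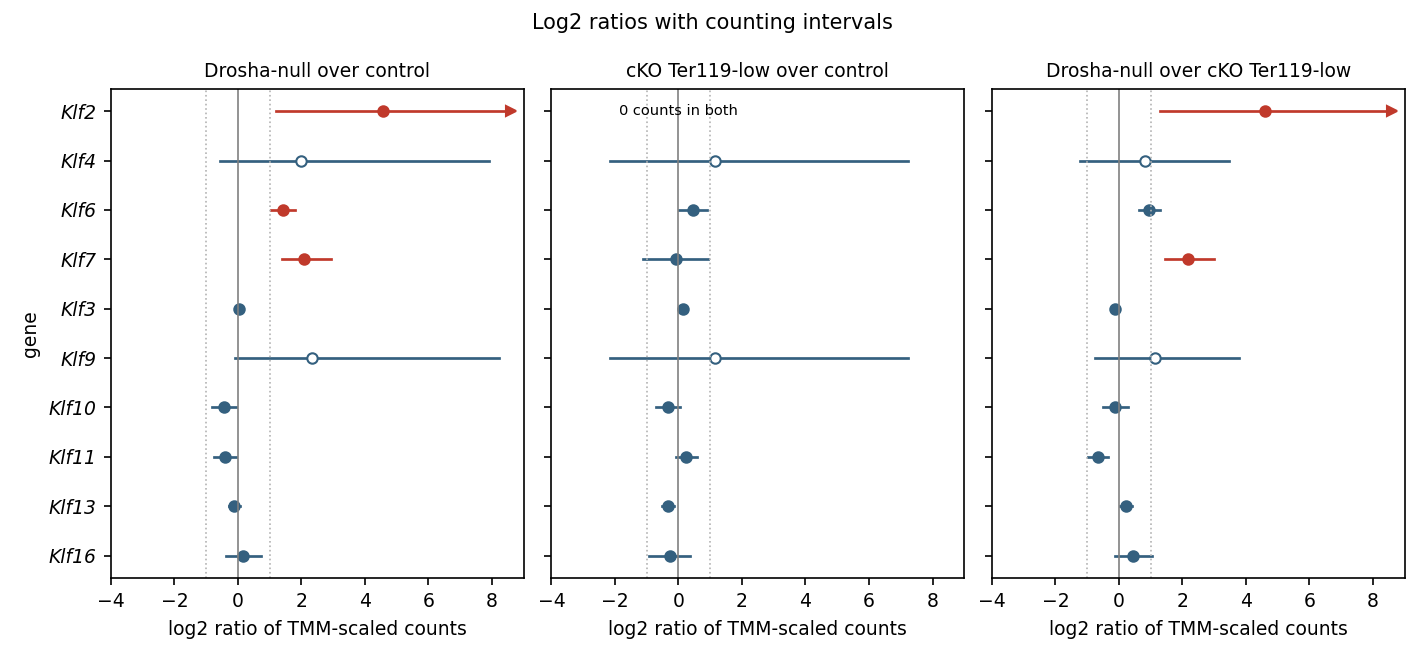
Log2 ratios of TMM-scaled counts with 0.5 counts added for the 10 genes (rows) in Drosha-null over control, Ter119-low cKO over control and Drosha-null over Ter119-low cKO; lines are 95% counting intervals, red marks genes called higher, open circles genes under the filter of 1 CPM, arrows intervals without an upper end, and dotted lines a ratio of 2 either way. Klf6 (1.41), Klf7 (2.08) and Klf2 are called in the first panel, none in the second, and Klf7 (2.17) and Klf2 in the third.

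Klf3, the CtBP-recruiting repressor, had 1165 counts in the Drosha-null, 1004 in the Ter119-low and 861 in the control library and was not called in any comparison. Its log2 ratio of Drosha-null to control was 0.03 (−0.10 to 0.16), and 0.46 when scaled by total counts. That change with the scaling is close to the shift of all genes, which was 0.43 here and 0.34 in Drosha-null over Ter119-low. Ter119-low over control was 0.14 (0.00 to 0.27) for Klf3. Drosha-null over Ter119-low was −0.11 (−0.23 to 0.01) by TMM and 0.23 by total counts, so the direction changed with the scaling. At this depth the counting intervals placed Klf3 within a ratio of 0.852 and 1.21 in all 3 comparisons by TMM. Klf1 had 1124 counts in the Drosha-null, 1279 in the Ter119-low and 1260 in the control library, with log2 ratios of −0.57 (−0.69 to −0.45) for Drosha-null over control and −0.06 (−0.18 to 0.05) for Ter119-low over control, neither called.

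Of the 5 Sin3-recruiting repressors 4 were tested, Klf9 being under the filter, and 0 were called in each comparison, where 20.2% of all genes were called in Drosha-null against control, 5.64% in Ter119-low against control and 16.7% in Drosha-null against Ter119-low. With 4 genes, 0 calls do not set them apart from all genes. Klf13, which in mice supports erythroblast maturation, had 580 counts in the Drosha-null, 397 in the Ter119-low and 472 in the control library. Its log2 ratio of Drosha-null to control was −0.11 (−0.29 to 0.07) by TMM and 0.32 by total counts. Ter119-low over control was −0.33 (−0.53 to −0.14), below 0 in every setting run. Drosha-null over Ter119-low was 0.22 (0.04 to 0.41) for Klf13, and −0.07 once the median of its gene length class was taken off.

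Klf10, an early response gene of TGF-β signalling, had 124 counts in the Drosha-null, 107 in the Ter119-low and 127 in the control library. Drosha-null over control was −0.44 (−0.81 to −0.07) by TMM and −0.01 by total counts. Ter119-low over control was −0.33 (−0.72 to 0.05) for Klf10, and Drosha-null over Ter119-low was −0.11 (−0.49 to 0.28) by TMM and 0.23 by FPKM. Klf11, its nearest relative, known in human cells to activate fetal globin promoters, had 146 counts in the Drosha-null, 183 in the Ter119-low and 145 in the control library. Its highest count was in the Ter119-low library, unlike that of Klf10. Drosha-null over control was −0.40 (−0.74 to −0.06) for Klf11 by TMM and 0.04 by total counts. Drosha-null over Ter119-low was −0.65 (−0.97 to −0.33), the lowest ratio of the 10 genes in that comparison and below 0 in every setting run, still under the size rule. Ter119-low over control was 0.25 (−0.07 to 0.58).

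Klf16 had 70 counts in the Drosha-null, 41 in the Ter119-low and 47 in the control library. Its log2 ratios were 0.17 (−0.39 to 0.73) for Drosha-null over control, −0.28 (−0.92 to 0.35) for Ter119-low over control and 0.44 (−0.13 to 1.04) for Drosha-null over Ter119-low, each with an interval that held 0. Klf9, induced by thyroid hormone and glucocorticoids, had 9 counts in the Drosha-null, 3 in the Ter119-low and 1 in the control library. It stayed under the filter, with a ratio of Drosha-null to control of 5.05 and an interval of 0.940 to 297.

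Counted over the family, 3 of the 8 genes tested in Drosha-null against control were called higher and 0 lower, where 12.4% of the 10769 genes tested were called higher and 7.73% lower (20.2% either way). The 8 include Klf2, which entered through the library where it was high. The median log2 ratio of the 8 was 0.10, also with Klf2 at its bound, against −0.02 over all genes tested. In Ter119-low against control, 0 of 7 were called, where 2.9% of 10591 genes were called higher and 2.74% lower (5.64% either way), and the median was −0.08, against 0.00 over all genes. In Drosha-null against Ter119-low, 2 of 8 were called higher and 0 lower, and the median was 0.33, against −0.02 over all genes. Of the 10795 genes tested there, 10.8% were called higher and 5.89% lower (16.7% either way). Klf2 again entered only through the Drosha-null library, and of the 7 members at 1 CPM or more in both libraries, 1 was called. Among genes in both tables the median of the members was 0.22. The comparisons share libraries, so their values are set side by side and were not correlated. Over all genes, Drosha-null against control gave 1340 higher and 832 lower by TMM but 2501 higher and 294 lower by total counts and 2380 and 288 by FPKM. Drosha-null against Ter119-low gave 1170 higher and 636 lower by TMM, 2036 and 304 by total counts and 1955 and 300 by FPKM. In Drosha-null against control, the ratio of Klf7 was above that of 96.3% of the genes tested and that of Klf6 above 91.9%, while Klf10 was above 26.4% and Klf11 above 28.6%.

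**Figure D3:**
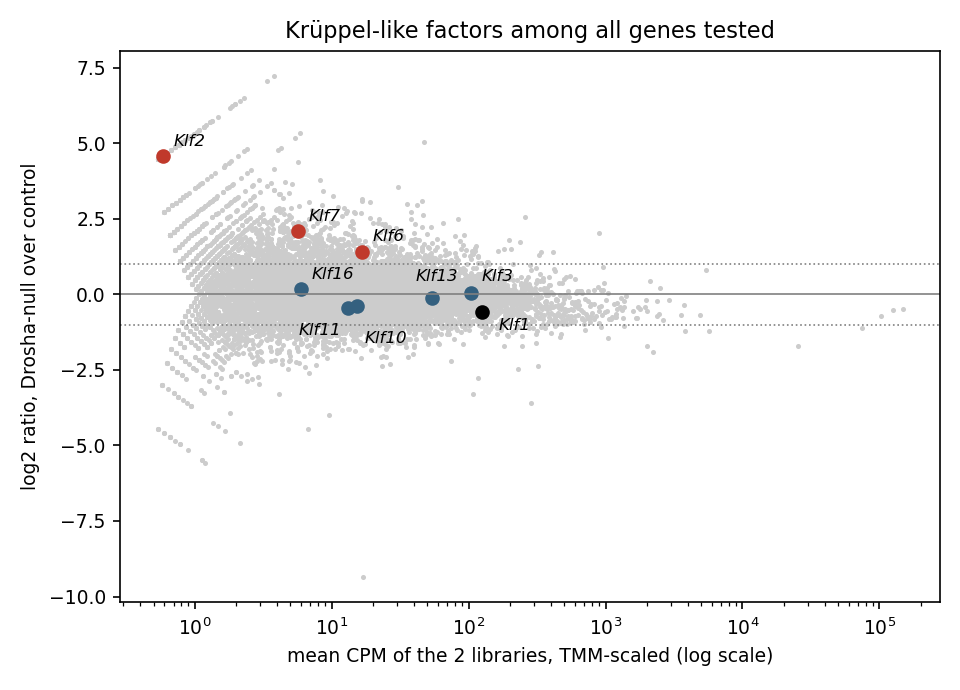
Log2 ratio of Drosha-null over control (vertical axis, TMM with 0.5 counts added) against mean CPM of both libraries (horizontal axis, log scale) for all 10769 genes tested in grey, with the 8 tested family members and Klf1 (black) marked; red marks the called genes and dotted lines a ratio of 2. Klf6 and Klf7 lie above the upper line at moderate abundance, Klf2 at the low edge of the filter, and the other 5 members between the lines.

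The log2 ratio of Drosha-null to control moved with gene length over all genes, from a median of −0.59 in the shortest of 10 length classes to 0.30 in the longest. Klf7, listed with a length of 1344 bases, falls in the second class (median −0.28), and Klf6, with 4217 bases, in the eighth (median 0.16). With the class median taken off, the ratio was 2.36 for Klf7 and 1.24 for Klf6, and both remained called. Klf13, the longest of the 10 by listed length (6396 bases), stood at −0.41 with its class median taken off.

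**Figure D4:**
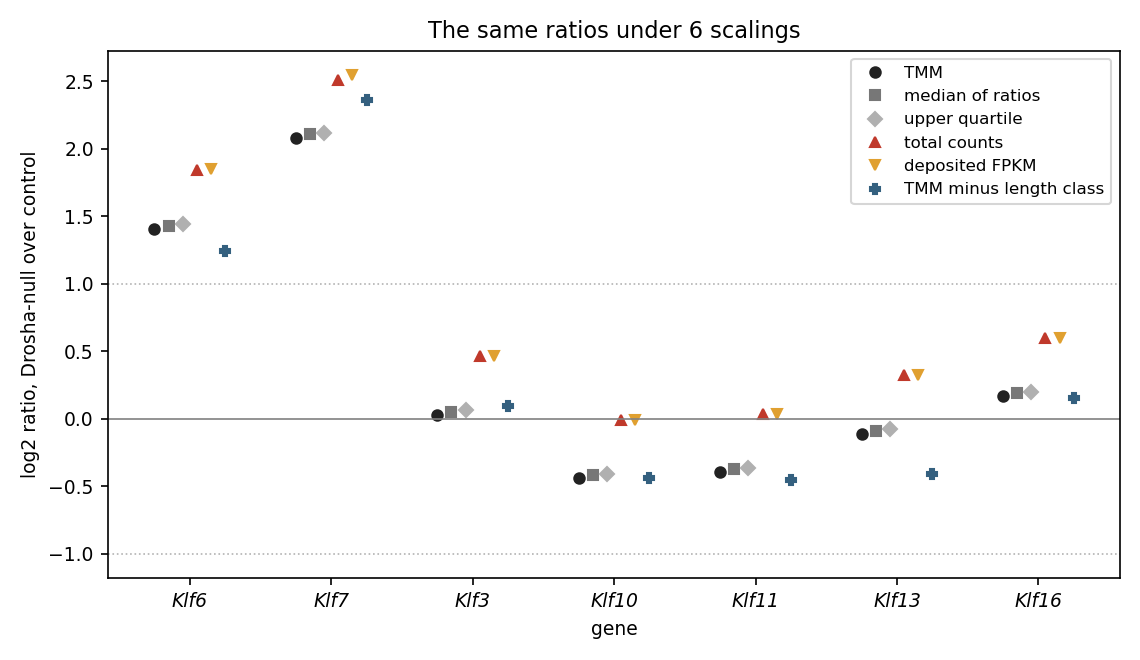
Log2 ratio of Drosha-null over control for the 7 tested members detected in both libraries under 6 scalings (TMM, median of ratios, upper quartile, total counts, deposited FPKM, and TMM minus the median of the gene length class); dotted lines mark a ratio of 2. Klf6 (1.24 to 1.85) and Klf7 (2.06 to 2.55 over all settings run) stay above the upper line, while Klf11 and Klf13 lie below 0 by TMM and above 0 by total counts and FPKM.

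Because Drosha makes microRNAs, the 3′ UTRs of the 10 genes were searched for 7-base matches to the seeds (bases 2 to 8, in capitals) of microRNAs known from erythroblasts. The mature sequences, from RefSeq on GRCm38.p6, are shown for the families that had a match in the 10 genes. The gene of miR-92a-3p has copies at chr14:115044476-115044496 (plus strand) and chrX:52741854-52741874 (minus strand), and miR-17-5p lies at chr14:115043684-115043706 (plus strand). let-7a-5p is shown from chr13:48538239-48538260 (minus strand) and miR-16-5p from chr3:69009918-69009939 (plus strand).
miR-92a-3p: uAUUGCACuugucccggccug
miR-17-5p: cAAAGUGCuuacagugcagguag
let-7a-5p: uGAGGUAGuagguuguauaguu
miR-16-5p: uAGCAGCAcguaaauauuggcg

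Matches to the miR-92a seed were present in 3 of the 10 genes, Klf2, Klf4 and Klf6, which all belong to the activating branch, while 8.01% of the 9585 tested genes with an annotated 3′ UTR held one. The 3′ UTRs searched were longer in the 10 genes than in the genes tested, with a median of 2719 bases against 1275, so the shares are not compared at equal length. The sites are shown because the other 7 genes held no match to this seed. The match is in capitals, in the longest annotated 3′ UTR of each gene (GENCODE M21, GRCm38), and in Klf2 and Klf4 it is followed by the A of an 8-base site.
Klf2, chr8:72321124-72321148, plus strand: ttcaaaatgGTGCAATaattgactt
Klf4, chr4:55527359-55527383, minus strand: gtttcagatGTGCAATaatttgtac
Klf6, chr13:5868263-5868287, plus strand: aatgatcttGTGCAATgtagggttg
These 3 genes had 13, 7 and 272 counts in the Drosha-null library and 0, 1 and 77 in the control. Their Ter119-low counts, in the same gene order, were 0, 3 and 112. Against the control, Klf6 was called higher in Drosha-null cells. Klf2 was called higher too, but entered the test only through the Drosha-null library. Klf4 was under the filter, and its ratio to the control had an interval of 0.678 to 238.

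Matches to the miR-17 seed were present in 5 of the 10 genes, Klf3, Klf6, Klf9, Klf10 and Klf11, where 15.6% of the genes tested held one. Of these 5, Klf6 was called higher in the Drosha-null library, Klf9 was under the filter, and Klf3, Klf10 and Klf11 were not called. The only 8-base site among them was in Klf11.
Klf11, chr12:24662581-24662605, plus strand: gaccccagtGCACTTTatcgcttga
Klf6, chr13:5869899-5869923, plus strand: ggggaaaatGCACTTTtgtttggca
Klf7, which had the highest ratio among the members detected in both libraries and tested, held 1 match, to the miR-16 seed, at position 3626 of a 3′ UTR of 6266 bases. That position is beyond the 1344 bases of the gene length listed for Klf7. The same holds for the miR-17 match of Klf3, at position 3313 against a listed length of 2314 bases. Klf13 held 2 matches to the miR-16 seed and 1 to that of let-7, Klf9 held 1 to let-7, and Klf16 held no match to the seeds searched. Matches to miR-16 and let-7 were held by 26.1% and 11.1% of the genes tested. The seeds of the erythroid pair miR-144-3p and miR-451a had 0 matches in the 10 genes, where 14.5% and 2.1% of the genes tested held one. A match is a description of the sequence, and binding was not measured.

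On a list of 16 other Krüppel-like and Sp genes, 14 are listed in the tables and 8 were tested in Drosha-null against control, of which 1 was called higher and 0 lower. For this and the lists that follow, the share over all genes in that comparison was 12.4% called higher and 7.73% lower, and counts of 1 or 2 genes are not read as a property of a list. The called gene was Sp9, with 16 counts in the Drosha-null, 5 in the Ter119-low and 1 in the control library and an interval of 0.91 to 8.98 around a log2 ratio of 3.13. It was under 1 CPM in the control and entered the test only through the Drosha-null library. Sp1, a general activator of GC-rich promoters, had the most counts on this list, which also holds Klf1. Sp1 had 2092, 1614 and 1305 counts in these libraries, with a log2 ratio of Drosha-null to control of 0.27. Sp8 had 4, 0 and 10 counts and was called lower in the Ter119-low library against the control, having entered that test only through the control. Klf5, chosen after its values were seen, had 4, 17 and 7 counts and was called lower in Drosha-null than in Ter119-low cells, at −2.26 (−4.44 to −0.79), having reached 1 CPM only in the Ter119-low library of that pair.

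Among 13 co-repressor genes, all tested, 0 were called higher and 1 lower in Drosha-null against control. The gene called lower was Ctbp1, a partner of Klf3, with 375 counts in the Drosha-null, 631 in the Ter119-low and 588 in the control library. Its log2 ratio to the control was −1.06 (−1.25 to −0.87) by TMM and −0.62 by total counts, where it was not called. Its relative Ctbp2 (0.02) and the Sin3 scaffold genes Sin3a (0.02) and Sin3b (−0.17), chosen after their values were seen, were not called. The genes of the list with the most counts, the nuclear receptor co-repressor gene Ncor1 and the deacetylase gene Hdac1, stood at −0.21 and 0.21. Rcor1 stood at 0.50. Of 6 co-activator genes, Kat2b, an acetyltransferase, was called higher with 352, 105 and 86 counts (1.62, 1.28 to 1.98), while Smarca4 stood at 0.21 and Ep300 at −0.73. Of 6 genes for ubiquitin ligases known to act on Krüppel-like factors, Wwp1, which targets Klf2 and Klf5, had 682, 234 and 214 counts (1.26, 1.04 to 1.49) and Smurf1 had 52, 20 and 17 (1.19, 0.39 to 2.09). These were the 2 of the 6 called higher, and 0 were called lower, with the abundant Btrc at −0.03.

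The pathway from the kinases MEKK3, MEK5 and ERK5 to the MEF2 factors is known to switch on Klf2 and Klf4 in endothelium. Its genes were listed with Ccm2, Krit1 and Pdcd10, which are not steps of that kinase chain. On this list 10 of 11 genes were tested and 2 were called higher in Drosha-null against control, 0 lower. Map3k3, which encodes MEKK3, had 50 counts in the Drosha-null, 14 in the Ter119-low and 5 in the control library (2.81, 1.60 to 4.6), and Mef2c had 66, 26 and 12 (2.01, 1.15 to 3.08). Map3k3 was under 1 CPM in the control and entered the test only through the Drosha-null library. The genes of the list with the most counts, Krit1 and Pdcd10, stood at −0.20 and −0.28. Mef2c and Map3k3 are expressed in endothelium, whose summed markers stood at 26.7, 12.8 and 13.1 CPM in the same libraries, and their part was not tested. Of 9 TGF-β genes, 8 were tested and 2 called higher, the receptor genes Tgfbr1 (624, 233 and 233 counts, 1.01) and Acvr2a (187, 92 and 44 counts, 1.67), while Smad2 stood at 0.56. Of 9 genes of steroid and thyroid hormone response, 7 were tested and 1 was called higher, the glucocorticoid receptor gene Nr3c1, with 79, 22 and 25 counts (1.24, 0.59 to 1.96). Rxra stood at 0.90, Thra at −0.86 and Fkbp5 at 0.08.

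Among 10 known targets of Klf2 and Klf3, 5 were tested in Drosha-null against control, with 1 called higher and 2 lower. The 2 called lower were the embryonic globins Hbb-bh1 (−1.70) and Hbb-y (−1.11), and the third embryonic globin, Hba-x, stood at −0.73. By total counts Hbb-y stood at −0.68 and was not called. The 12 erythroid markers, which hold these globins, had a median of −1.02 in the same comparison, with 6 called lower by TMM and 2 by total counts, among them Ahsp (−1.70), the gene of the chaperone of alpha globin, chosen after its value was seen. The part of these markers in the target list was not tested. The integrin gene Itgb7, a Klf2-dependent gene of T cells, had 17, 4 and 1 counts in the Drosha-null, Ter119-low and control libraries and was called higher, with an interval of 1.01 to 9.07 on the log2 scale. It entered the test only through the Drosha-null library. Immediate early genes, which several Krüppel-like factors accompany in stressed or freshly handled cells, had 1 of 10 tested genes called higher in Drosha-null against control, Junb, with 34, 17 and 6 counts, which was under 1 CPM in the control and entered the test only through the Drosha-null library. The other named members of this list, none of them called, stood at −0.41 for Dusp1, 0.27 for Btg2 and −1.21 (−3.00 to 0.28) for Fosl1. Fosl1 had 6, 7 and 11 counts and reached 1 CPM only in the control.

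The lists were also set beside each other by medians of the log2 ratio of Drosha-null to control over the genes tested, where all genes had −0.02. The other Krüppel-like and Sp genes stood at −0.02, co-repressors at −0.17, co-activators at −0.03 and ubiquitin ligases at 0.49. The list with the MEK5 and ERK5 pathway stood at 0.00, TGF-β genes at 0.31 and hormone response genes at 0.42. Klf2 and Klf3 targets stood at −0.73 and immediate early genes at −0.20. By total counts 3 of the ubiquitin ligase genes and 3 of the hormone response genes were called higher, against 2 and 1 by TMM. In Ter119-low against control the calls were Sp8 (lower), Smad7, an inhibitor of TGF-β signalling with 7, 11 and 2 counts in the Drosha-null, Ter119-low and control libraries (higher), and Junb (higher). Each of these 3 reached 1 CPM only in the library of the pair where it was high. In Drosha-null against Ter119-low, Kat2b (1.42), Wwp1 (1.22), Smurf1, Map3k3, Mef2c, Tgfbr1, Nr3c1, Rxra (1.33) and Itgb7 were called higher, Itgb7 having reached 1 CPM only in the Drosha-null library. By total counts Sp9, Acvr2a, Smad3, Smad4 and Tsc22d3 were called higher too, so that TGF-β calls numbered 4 in place of 1. Klf5, Ctbp1 (−1.07), Hbb-bh1 (−1.18) and S1pr1 (−1.02), a Klf2 target in lymphocytes, were called lower, and of these only Klf5 was also called by total counts. Smad3, Smad4, Smad7, S1pr1 and Tsc22d3 were chosen after their values were seen.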

How the data were processed

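RNA was sequenced from 3 libraries, grouped by their labels. Per gene, the deposited tables give expected counts (the authors' estimated reads, unscaled), FPKM values with 0.001 entered at 0 counts, and gene lengths, per the file headers and values. They also hold log2 ratios, p-values and FDR scores, per the file headers, which were not used here. The sources used here do not give the aligner, counting program, strand setting or build. Exons of Klf3 and Klf7 overlap antisense genes in GENCODE M21.

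The tables were joined by gene ID (13882 genes in both, control counts differing for 0), with 0 counts for a gene listed in 1 table, and expected counts were rounded. Scaling was by TMM (edgeR 4.0.16, R 4.3.3), with intervals from exact conditional binomial (Clopper-Pearson) limits in Python 3.11.15 (SciPy 1.17.1, pandas 2.3.3). Each group has 1 library, so no model was fitted and no p-value computed. The floor of 3 counts was 0.269, 0.337 and 0.357 CPM in the Drosha-null, Ter119-low and control libraries.

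Named genes were all 10 members, Drosha, Klf1 and, from each list other than cell type markers, the 2 genes with the most counts, and the 2 whose Drosha-null to control ratio was farthest from 1 among those tested. The nearest genes of the 3 members with the most counts were named too. Members and lists were chosen with earlier results of these data known. MicroRNA families were miR-451, miR-92/25, miR-17/20/93, miR-144-3p, let-7 and miR-15/16. miR-486-5p was not analysed here.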

Additional observations from a re-analysis of the deposited data

How the results depend on the processing

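No paired analysis was possible because each group has 1 library, and no library could be left out. The alternatives were 3 other scalings, the deposited FPKM, 2 other added counts, 2 filters, 2 size rules, a gene length correction and genes in both tables only. Klf7 was called in both comparisons with the Drosha-null library in all 11 settings with a size rule of 2 (the reported one included), and Klf6 against the control in all 11 but not at a ratio of 3 (its ratio was 2.65). Klf2 was not called at 5 CPM or among genes in both tables, and has no FPKM ratio against 0. The median of the members in Drosha-null over control was 0.53 by total counts, 0.46 by FPKM and 0.79 with no filter. By total counts the median of all genes was 0.41. With no filter the median includes Klf4 and Klf9, at 7 and 9 counts in the Drosha-null and 1 each in the control library. In Drosha-null against Ter119-low, members called numbered 1 at 5 CPM, 1 among genes in both tables and 4 at a ratio of 1.5. Over all genes, called numbers at 5 CPM, a ratio of 1.5 and a ratio of 3 were 1300, 3999 and 972 for Drosha-null against control, 117, 1062 and 332 for Ter119-low against control, and 1015, 3562 and 799 for Drosha-null against Ter119-low. Fewer genes are tested at 5 CPM. In 20 of 294 single-member values the change exceeded the counting interval, in each case with total counts, FPKM or the length correction, and 0 called values changed sign. Scaling the other gene lists by total counts was chosen after seeing the data. Klf2, Klf4 and Klf9, at 13 counts or fewer, are limited by depth.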

Other observations

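Candidates were genes with total counts from 0.5 to 2 times those of a member. The genes nearest to the members with the most counts were found by distance between their 2 log2 ratios to the control, over 3 libraries. For Klf3 they were Myl12a, Haus6 and Sltm, at distances of 0.01 to 0.02, with 503 of 1664 candidate genes within 0.25. For Klf13 they were Wipf2, Flot2 and Ubl7, with 236 of 2806 within 0.25, and for Klf11 Arfrp1, Nbn and Camk2g, with 279 of 3552. The same was computed for Klf6 and Klf7 after their values were seen. Klf6 had 51 of 3551 candidates within 0.25, the nearest Slc25a4 with 427, 175 and 122 counts in the Drosha-null, Ter119-low and control libraries. Klf7 had 7 of 2749 within 0.25. The nearest was Hhex, a homeobox gene of blood and endothelial progenitors, with 92, 16 and 16 counts in the Drosha-null, Ter119-low and control libraries. It was followed by Cep55 (68, 11 and 11) and Prkra (107, 17 and 18).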
